A study of Drosophila melanogaster with 4 samples.

Results

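The regions described here are 936 Doublesex binding summits on the autosomes of Drosophila melanogaster that lay between genes but not far from one. They were taken by position alone from a list of 9154 reproducible peak summits. A summit was kept if it was not on the X chromosome, lay outside every annotated gene, and was 501 to 5000 bp from the nearest transcript start (dm6 assembly, Ensembl gene models without transposable elements). They made up 10.2% of the reproducible summits and 12.3% of the 7623 autosomal ones, and they lay in 895 of the 8775 peak intervals. The remaining autosomal summits were 2773 within 500 bp of a start, here called promoter peaks, 3094 intronic, 260 exonic and 560 intergenic ones more than 5000 bp from a start. Binding was read out with ChIP-seq, the sequencing of DNA recovered with a protein by an antibody, from whole prepupae labelled 24 h, with males and females pooled. All animals carried a dsx transgene fused to enhanced green fluorescent protein (eGFP) at the C terminus, and chromatin was recovered with an antibody to GFP. The 4 samples were labelled biological replicates 1 to 4 and form a single group, with no comparison group and no control library analysed here. Whole animals of both sexes were used, so a summit cannot be tied to a tissue, to a sex or to the male or female protein.

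Doublesex is the transcription factor that carries out the last step of somatic sex determination in flies. Its messenger RNA is spliced differently in males and females, and the proteins made from it share a zinc-finger DNA-binding domain of the DM type while differing at the C terminus. They bind DNA as dimers at a palindromic sequence whose centre is ACAATGT, read on either strand, and they direct sex differences in genitalia, pigmentation, fat body and nervous system. Intergenic sequence a short way from a start is where many enhancers of fly genes lie.

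The summit sequences below are shown because they carry the motif on which the later results turn. Each is the 101 bases centred on the summit, read on the plus strand of the dm6 reference (RefSeq copy) and named by the coding gene with the nearest start. Capitals mark the core, ACAATGT or its reverse complement, except at dsx. The dsx summit, the strongest of all, held no such core, and its capitals mark a match to the longer Doublesex consensus, which has ACAAAGT on the minus strand at its centre. The summits of Rh5, Glut4EF, CG43149 and dmrt99B have CA before the core and TG after it, those of shd, E(spl)mgamma-HLH and ex have 1 of these pairs, and that of corto has neither.
dsx, chr3R:7967953-7968053: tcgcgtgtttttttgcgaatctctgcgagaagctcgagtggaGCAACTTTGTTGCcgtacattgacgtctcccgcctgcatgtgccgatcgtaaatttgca
Rh5, chr2L:12010350-12010450: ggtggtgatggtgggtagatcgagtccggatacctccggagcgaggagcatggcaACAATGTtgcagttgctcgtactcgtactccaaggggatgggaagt
shd, chr3L:14613214-14613314: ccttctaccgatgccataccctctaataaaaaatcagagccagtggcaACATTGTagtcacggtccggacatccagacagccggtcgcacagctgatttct
Glut4EF, chr3R:9874107-9874207: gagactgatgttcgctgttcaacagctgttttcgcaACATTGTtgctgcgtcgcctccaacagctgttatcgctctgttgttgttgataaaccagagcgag
CG43149, chr3L:50945-51045: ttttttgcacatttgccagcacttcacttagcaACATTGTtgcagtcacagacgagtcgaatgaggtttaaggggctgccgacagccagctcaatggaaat
dmrt99B, chr3R:29691126-29691226: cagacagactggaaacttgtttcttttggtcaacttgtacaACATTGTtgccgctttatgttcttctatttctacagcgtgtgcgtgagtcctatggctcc
E(spl)mgamma-HLH, chr3R:26002872-26002972: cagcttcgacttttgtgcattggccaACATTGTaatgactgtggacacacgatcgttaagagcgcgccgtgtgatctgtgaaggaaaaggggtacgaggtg
ex, chr2L:427985-428085: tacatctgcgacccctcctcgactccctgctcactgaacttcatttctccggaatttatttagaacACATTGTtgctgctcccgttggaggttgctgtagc
corto, chr3R:5087932-5088032: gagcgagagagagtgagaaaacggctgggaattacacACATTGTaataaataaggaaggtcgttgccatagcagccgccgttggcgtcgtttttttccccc

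The strongest binding was next to dsx itself. The peak at 3R 7968003, 595 bp upstream of the dsx start (FBgn0000504, 3R 7924323 to 7967408, minus strand), had an authors' signal value of 68022 in the reproducible list. The signal value is the peak caller's own score and can only be ranked within a list. In the lists of replicates 1 to 4 it was 16521, 21721, 15428 and 14528, and the peak ranked 1 in each. Labels describe the tagged construct as targeting dsx, and whether sequence of that construct added to the reads at dsx was not tested. The second peak, at 2L 12010400, lay 2022 bp downstream of the nearest start of Rh5 (FBgn0014019, 2L 12008153 to 12009832, plus strand), the gene of a rhodopsin of photoreceptor cells, beyond the 3′ end of that gene. Its signal values in replicates 1 to 4 were 9190, 11959, 14195 and 14168, at rank 2 in each. It held the core 8 bp from the summit.

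Sesn, which encodes a stress-induced inhibitor of TOR signalling, had a summit 576 bp upstream of its start (2R 23713324), at rank 4 of the reproducible list. It ranked 10, 5, 5 and 4 in replicates 1 to 4, lowest in replicate 1, and held neither the core nor the longer consensus. shd encodes the enzyme that makes the active moulting hormone 20-hydroxyecdysone. Its main summit, 1194 bp upstream (3L 14613264), had signal values of 2662, 3708, 4967 and 4850 in replicates 1 to 4 and ranked 6, 7, 7 and 7. The core lay 1 bp from the shd summit, and a further shd peak 2625 bp upstream, at rank 164, held the core as well. Glut4EF had a summit 524 bp upstream (3R 9874157) that ranked 15, 14, 20 and 15 in replicates 1 to 4. The summit of dmrt99B, a DM-domain relative of dsx, lay 1415 bp upstream (3R 29691176) and ranked 24, 20, 17 and 14. At blow, a gene needed for myoblast fusion, the summit was 631 bp upstream (2R 7587710), held 2 copies of the core and ranked 43, 29, 14 and 17. Replicate 1 gave the lowest rank at Sesn, dmrt99B and blow.

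**Figure D1:**
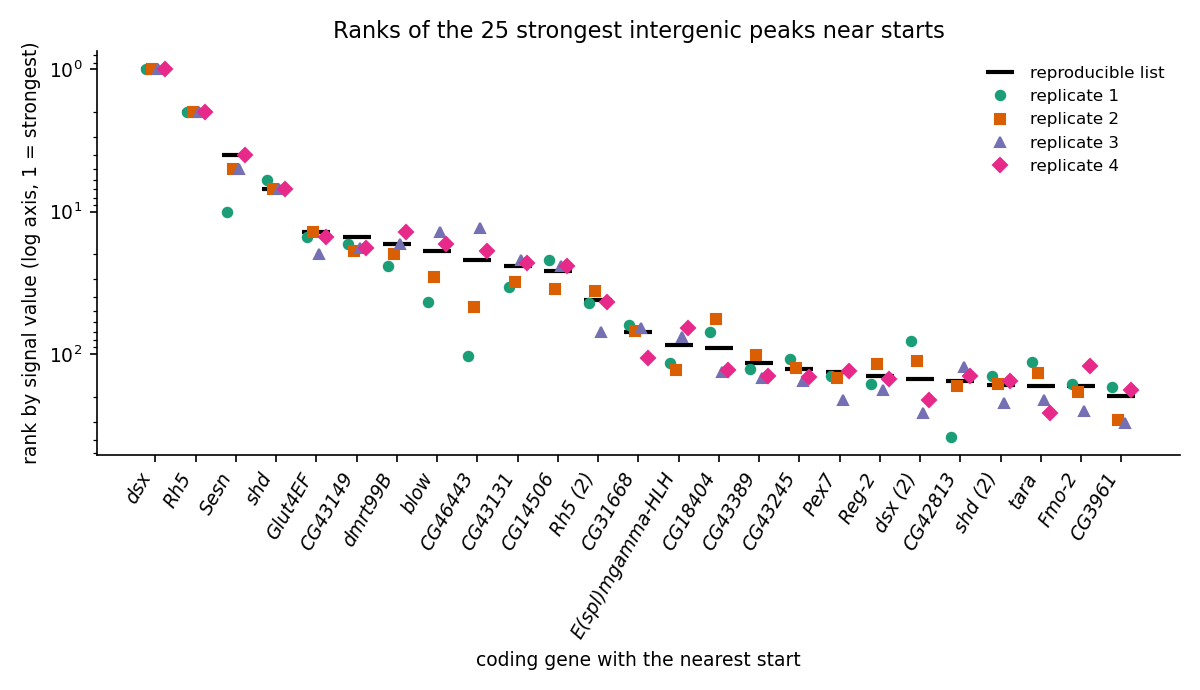
Rank by the authors' signal value (log axis, 1 is the strongest) of the 25 strongest intergenic peaks near starts, in the reproducible list (black dashes) and in each of the 4 replicates (coloured points). The dsx and Rh5 peaks hold ranks 1 and 2 in each replicate, and the CG46443 peak has the widest spread on this log axis, from rank 13 to 104.

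The 25 strongest of these regions lay nearest to 22 coding genes and had signal values of 3063 or more. All 25 were found among the strongest 10000 summits of each replicate. Their lowest rank was 380 in replicate 1, for the peak nearest to CG42813, and 290, 304 and 261 in replicates 2, 3 and 4. Among them, 11 held the core, 13 the longer consensus and 5 ACAAAGT, and 9 held none of these. Those with the core were nearest to Rh5, shd (both peaks), Glut4EF, CG43149, dmrt99B, blow, CG46443, E(spl)mgamma-HLH, Reg-2 and Fmo-2. E(spl)mgamma-HLH encodes a bHLH repressor downstream of Notch, and its summit (3R 26002922) lay between noncoding genes 3071 bp from its start. CG46443, an uncharacterised gene, had ranks of 104, 47, 13 and 19 in replicates 1 to 4, the widest spread of the 25 as a ratio of the lowest to the highest rank. Fmo-2 encodes a flavin-containing monooxygenase, and its summit 746 bp upstream (2R 6645844) held the core with both flanking pairs. Those without the core included a further Rh5 peak 639 bp upstream (signal value 6123), a further dsx peak 1750 bp upstream (3536), Pex7, a receptor for import into peroxisomes (3686), tara (3306), CG31668 (5023) and CG18404 (4530). CG43131 (7892), CG14506 (7603), CG43389 (3966), CG43245 (3790), CG42813 (3461) and CG3961 (3063) also lacked it. The CG3961 summit is secondary, meaning that a stronger summit lay less than 260 bp below it in coordinate, so it may not be a separate site. A noncoding gene had the nearest start for 6 of the 25.

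Of 11749 autosomal coding genes, 536 (4.56%) had at least 1 of these regions for which theirs was the nearest coding start. Of these genes, 343 had 1 region, 102 had 2 and 91 had 3 or more. The share depends on how much intergenic sequence a gene has: 5289 genes had some qualifying sequence, meaning bases where a summit would meet the rule, nearest to them, and the 536 were 10.1% of those. The gene lists used below were chosen with results of these data already known. Their counts are therefore set beside the 4.56% and beside the overall 67.0 regions per Mb of qualifying sequence, with no test. Reg-2 and the uncharacterised gene CG33795 had the most regions, 10 each. The limit of 5000 bp holds for the nearest start of any gene, coding or not. The nearest coding start lay within it for 688 of the 936 regions. Among named genes, the strongest region lay farther away for CG42813 (6244 bp), hid (7377), chinmo (7827), tup (9040), Obp56h (9489) and Abd-B (10428). The same holds for odd (12586 bp), Reg-2 (13515), CG14506 (17176) and drm (17949).

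Genes reported to be regulated by Doublesex had regions in 9 of 23 autosomal cases, with 23 regions in all, or 373.0 per Mb. Of the 23 regions, 6 were nearest to dsx and 7 to Rh5, the genes of the strongest and second peaks. These genes therefore weigh heavily in the density. The list was chosen with results of these data known, so its count and density are no independent check. The other genes of the list with a region had moderate or weak peaks. bab2, one of the pair of bric-a-brac repressors of abdominal pigmentation, had a summit 1005 bp upstream (3L 1178281, signal value 715.1) that ranked 4119, 3222, 2372 and 1806 in replicates 1 to 4. Its neighbour bab1 had one 1355 bp upstream (3L 1102444, 362.5) that ranked 3949, 7791, 9416 and 6181, so it was among the strongest 10000 of each replicate. Cyp4d21, a cytochrome P450 gene (625.1), and to, the takeout gene (515.5), ranked under 5000 in all replicates. Fad2, the desaturase gene of female pheromones (393.3), was listed in replicates 2 and 3 at ranks 5659 and 7447 and had no summit within 100 bp in the lists of replicates 1 and 4. dpp, the BMP ligand gene (271.0, ranks 4480 to 18630), and the Hox gene Abd-B (267.3, ranks 7195 to 20785) had the weakest peaks. Among genes of the list found in every replicate, dpp and Abd-B also had the widest spread of ranks. Rh5 was the only one of the 9 with the core at any of its regions.

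Lists of hormone and nutrient genes are described next, in no order of density. In the ecdysone list, 6 of 28 genes had a region (239.5 per Mb): shd led, followed by Eip93F, an early regulator of metamorphosis (signal value 1124), Eip63E, a cyclin-dependent kinase gene (759.1), and the nuclear receptor gene Hr38 (505.8). Only the shd regions held the core among these 6 genes. In the insulin, TOR and nutrient list 2 of 31 genes had a region (249.6 per Mb), Sesn (21254) and foxo (1746). foxo encodes the transcription factor restrained by insulin signalling, and its summit ranked 597, 638, 797 and 709 in replicates 1 to 4. Of 39 fat body and metabolism genes only Npc2b, a sterol-binding protein gene, had one (537.3), at 28.4 per Mb, a density below the overall one. Rh5, with 7 regions, was the single case among 21 rhodopsin and phototransduction genes (213.7 per Mb). dsx, with 6, was the single case among 16 genes of sex determination and dosage compensation (531.8 per Mb). None of 19 pigment genes had a region, with 0.0195 Mb of qualifying sequence among them.

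Lists of developmental regulators gave further cases. Of 64 genes of imaginal disc patterning, 15 had a region (97.9 per Mb). The Wnt and planar polarity receptor gene fz (2595) ranked 859, 317, 200 and 291 in replicates 1 to 4, and fng, the glycosyltransferase that modifies Notch (2580), ranked 519, 343, 186 and 304. The ETS repressor gene aop (1089) and the POU gene pdm2 (921.6, with the core) were next. Genital disc and gonad genes were represented by 10 of 23 (105.8 per Mb). They were led by the zinc-finger genes odd (1348) and drm (591.2), the LIM-homeodomain gene tup (740.9) and zfh1 (504.1). The summits of odd, drm and tup lay 12586, 17949 and 9040 bp from the coding start. Hox genes and cofactors numbered 2 of 12, bcd (346.8) and Abd-B, at 32.9 per Mb, a density below the overall one. The list of DMRT genes, nuclear receptors and other sequence-specific regulators had 7 of 37 (244.3 per Mb), with dsx, dmrt99B, foxo and the BTB zinc-finger gene chinmo (920.5) strongest.

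Among signalling, adhesion and cell death genes, the JAK-STAT, JNK and wound list had 4 of 17 (298.5 per Mb): chinmo, the Fos gene kay (657.0), the metalloprotease gene Mmp2 (643.9) and zfh1. Of 32 actin, adhesion and epithelial genes, 7 had a region (260.8 per Mb). Among these, the atypical cadherin genes ds (1936, with the core) and ft (1153), the Golgi kinase gene fj that modifies them (1149, with the core) and the integrin gene scb (988.1) had the strongest. ds ranked 798, 706, 579 and 332 in replicates 1 to 4. Cell death regulators had 3 of 15, at 62.9 per Mb, a density below the overall one. They were the pro-death genes hid (1963, ranks 713, 735, 338 and 554) and rpr (718.5), and the caspase inhibitor Diap1 (274.8). The summits of all 3 lacked the core.

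Of the lists of differentiation genes, muscle genes had 6 of 33 (94.1 per Mb), with the actin genes Act57B (805.7) and Act87E (610.1) and the myogenic regulator twi (545.5) after blow. Neuronal genes had 5 of 35 (56.4 per Mb, below the overall density), led by tup, 18w (579.7), the guidance receptor gene robo2 (447.2) and Toll-7 (432.9). Cuticle and chitin genes had 3 of 43 (90.5 per Mb): Cpr72Ea (2057, ranks 484, 432, 381 and 673), the chitin deacetylase gene verm (317.5) and Cpr97Ea (283.4). Of 38 chemosensory and odorant-binding genes, 2 had a region (30.2 per Mb, below the overall density), Obp56h (1688) and Obp99c (387.7). Some genes stand in more than 1 list, such as chinmo, tup, zfh1 and Abd-B.

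Several regions often shared 1 stretch between genes. Of 5386 autosomal stretches with qualifying sequence 575 held a region (10.7%): 378 held 1, 111 held 2 and 86 held 3 or more, and 59.6% of the regions shared their stretch with another. The most, 8, lay between CR33283, a pseudogene, and CG12984 (3L 20979651 to 20991672), with signal values of 300.2 to 915.6 and no core. Between dsx and CD98hc, which encodes a subunit of an amino acid transporter, 7 regions lay in 7000 bp (3R 7967409 to 7974408). Of these 7, 3 were secondary summits and 1 held the core. The same number lay between Hacd1 and Rh5 (2L 12002267 to 12008152, strongest 6123) and between CG18404 and lncRNA:CR46113 (3R 30254098 to 30272761, strongest 4530), both without the core. A further 6 lay between lncRNA:CR45568 and CG14506 (3R 29277109 to 29293742, strongest 7603), the stretch with the strongest region among 6 that held this number. The nearest other reproducible summit was a median of 1377 bp away, and 37.1% had one within 1000 bp, against 37.0% of the far intergenic peaks. Whether neighbours are bound independently was not tested, and the tests below count each region as a unit.

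Signal strength and support by replicates lay close to those of far intergenic, intronic and promoter peaks. The median signal value was 458.1 (quartiles 329.3 and 759.8), against 456.6 for far intergenic, 464.3 for intronic and 480.7 for promoter peaks. The 936 regions, 10.2% of the list, supplied 10 of its 25 strongest peaks and 15 of its 100 strongest. A replicate supported a region when 1 of its strongest 10000 summits lay within 100 bp. Replicates 1 to 4 supported 70.7%, 79.7%, 89.6% and 84.3% of the regions, a mean of 81.1% ± 8.01 (SD, n = 4). Replicate 1 was lowest, and it alone is outside the reproducible list, which was made from replicates 2, 3 and 4. Exonic peaks, with a lower median signal value of 406.5, averaged 76.25% ± 4.22 (SD, n = 4) and were not tested. Far intergenic peaks averaged 81.2% ± 9.17, intronic 81.5% ± 5.70 and promoter peaks 80.7% ± 4.04 (SD, n = 4). The mean differences of −0.12, −0.38 and 0.42 percentage points were smaller than their SDs of 3.04, 2.41 and 5.15, with regions higher in 1, 1 and 2 of the 4 replicates (exact permutation test flipping signs over replicates, two-sided, adjusted p = 1 for each). In replicate 1 the regions were lower in each comparison, with differences of −0.70, −3.09 and −4.14 percentage points. Against promoter peaks, replicates 1 to 4 gave −4.14, −3.71, 6.19 and 3.34 points, so the mean near 0 joins differences of both signs. The sign of each mean difference changed with the support distance, the number of summits taken or a replicate left out. All 4 replicates supported 493 regions (52.7%), against 52.8% of all autosomal reproducible peaks, and 4 regions were supported by none. Across regions, signal values of 2 replicates had a Spearman correlation of 0.682 to 0.779 over 797 to 869 regions found in both lists, a description over regions that share libraries.

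Qualifying sequence held more summits per Mb than sequence farther out. It made up 14.0 Mb, or 12.7% of the autosomal arms, and held 67.0 reproducible summits per Mb, against 32.6 in far intergenic, 72.6 in intronic, 183 in promoter and 12.2 in exonic sequence. Among the strongest 10000 summits of each replicate the density was 66.4, 67.1, 78.1 and 74.1 per Mb in replicates 1 to 4. The ratio to far intergenic sequence was 2.11, 2.17, 2.02 and 1.99, a mean log2 ratio of 1.05 ± 0.058 (SD, n = 4), above 0 in all replicates (exact permutation test by sign flips, two-sided, p = 0.125, the smallest that 4 replicates allow). Repeats masked in the reference took up 20.1% of the near and 31.7% of the far sequence. Over unmasked bases alone, the reproducible densities were 68.4 and 37.8 per Mb. Reads from repeats can be hard to place, and whether that moved the ratio further was not tested.

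Density was lower farther from the start. The reproducible density was 80.2 per Mb at 501 to 1000 bp (193 regions), 74.5 at 1001 to 2000 bp (289), 56.3 at 2001 to 3000 bp (176), 64.5 at 3001 to 4000 bp (162) and 56.5 at 4001 to 5000 bp (116). The means over the 4 replicates were 84.1 ± 8.85, 80.0 ± 6.05, 62.0 ± 5.21, 67.4 ± 5.96 and 59.7 ± 5.29 per Mb (SD). The fall was not even, since the bin from 3001 bp stood above the one before it in all 4 replicates. In replicate 2 the bin from 1001 bp (79.7 per Mb) also stood above the bin from 501 bp (73.1). Upstream of the nearest start lay 644 regions (68.8%), at 71.7 per Mb, and downstream 292, at 58.5 per Mb. The ratio of upstream to downstream density was 1.24, 1.21, 1.19 and 1.18 in replicates 1 to 4, a mean log2 ratio of 0.27 ± 0.032 (SD, n = 4), with upstream higher in all replicates (exact permutation test, two-sided, p = 0.125, the smallest possible). This ratio mixes side with distance, since upstream sequence made up 79.8% of the bin from 501 bp and 55.9% of the bin from 4001 bp. On the reproducible list upstream density was the higher in each bin. The gap was small at 2001 to 3000 bp (58.3 and 53.3 per Mb) and at 3001 to 4000 bp (65.3 and 63.4). Downstream regions lie beyond the 3′ end of the gene, as at Rh5, CG43149 and CG18404. Stretches between divergent genes held 74.0 regions per Mb, tandem ones 64.1 and convergent ones 66.2. The nearest start was that of a coding gene for 577 regions (61.6%), of a noncoding RNA for 331 (35.4%), of a tRNA for 20, of a pseudogene for 7 and of a snoRNA for 1.

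**Figure D2:**
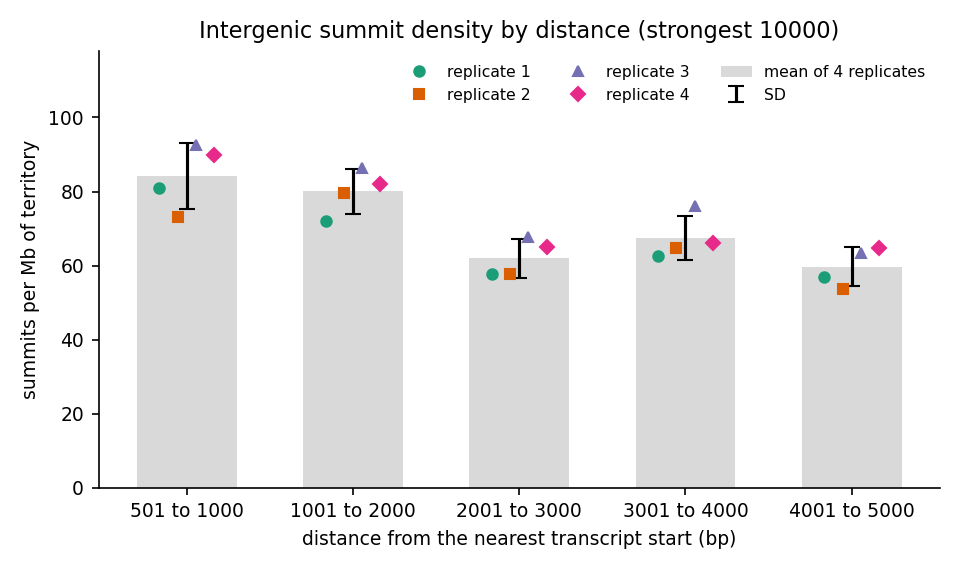
Summits per Mb of intergenic sequence in 5 bins of distance from the nearest transcript start, among the strongest 10000 summits of each replicate. Grey bars are means of the 4 replicates, black lines their SD and points single replicates; the mean is 84.1 per Mb in the nearest bin and 59.7 in the farthest.

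The arm 3L stood out. It held 326 of the 936 regions, at 93.3 per Mb, against 203 on 2L (56.4 per Mb), 177 on 2R (61.7), 228 on 3R (58.6) and 2 on chromosome 4 (16.7). Among the strongest 10000 summits, the density on 3L was 96.1, 94.98, 113.3 and 105.0 per Mb in replicates 1 to 4, while no replicate exceeded 69.6 on the other large arms. The ratio of 3L to the other large arms together was 1.69, 1.63, 1.69 and 1.63, and for all other autosomal summits it was 1.06, 1.03, 1.04 and 1.06. The difference in log2 ratio was 0.66 ± 0.036 (SD, n = 4), higher for the regions in 4 of 4 replicates (exact permutation test, two-sided, p = 0.125, the smallest possible). This comparison was chosen after the arm values had been seen. On 3L, 13.9% of the stretches held a region, against 9.79% on 2L, 10.9% on 2R and 8.72% on 3R, and 36 of its stretches held 3 or more. Far intergenic density was also highest on 3L (39.8 per Mb, against 32.7, 22.1 and 35.7 on 2L, 2R and 3R), as was promoter density (196.7, against 173.5, 181.8 and 182.1), while intronic density was not (74.0 against 79.5, 75.8 and 67.5). Of the 3L regions, 42.0% had a noncoding RNA start nearest, against 38.4%, 28.8% and 28.1% on 2L, 2R and 3R. With coding genes alone as models, the mean log2 ratio of 3L fell from 0.73 to 0.50. Single megabases with the most regions included 3L from 11 to 12 Mb (42 regions), 3L from 0 to 1 Mb (39) and 2L from 14 to 15 Mb (34).

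**Figure D3:**
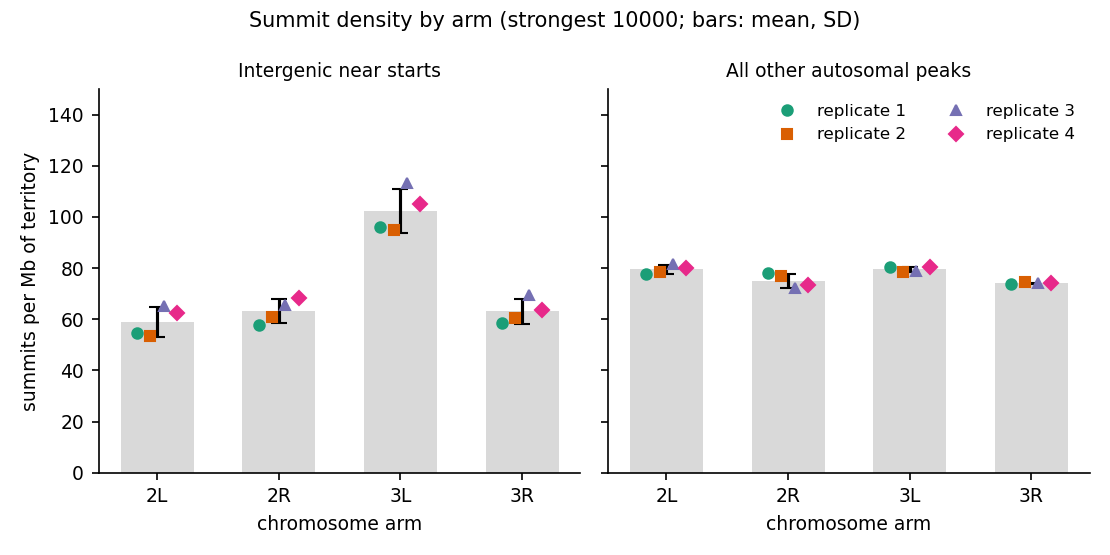
Summits per Mb of territory on the 4 large autosomal arms, for the intergenic regions near starts (left) and for all other autosomal summits (right), among the strongest 10000 of each replicate. Bars are means, black lines SDs and points replicates; on the left 3L lies between 94.98 and 113.3 in every replicate, above all points of the other arms.

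The Doublesex core was most frequent at the centre of these regions. A copy of ACAATGT in either orientation was present no more than 50 bp from 84 of the 936 summits (8.97%, 95% exact interval 7.22 to 11.0, counting error only), against 8.06% of all reproducible summits. Equally long windows placed 500 bp to the left and right had it in 0.748% and 0.962% of cases, and in 1.64% of the 138381 windows that tile the qualifying sequence. Summits exceeded the higher flank 9.33-fold (exact McNemar test, two-sided, p = 7.58e-17). The fold depends on the flank and window: it was 4.0 against flanks 1000 bp away, where the higher share was 2.24%, and 5.5 with windows of 100 bp on each side. The median distance of the core from the summit was 20 bp, and 55 of the 84 lay within 25 bp. ACAAAGT, which differs from the core by 1 base, had shares of 7.69% at summits and 2.46% in flanks (exact McNemar adjusted p = 8.29e-07). The longer consensus was at 7.16% and 1.82% (exact adjusted p = 2.45e-07) and overlaps both. Either of the cores was at 153 summits (16.3%), so most regions, the strong Sesn peak among them, held neither within 50 bp.

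The core was more frequent here than at promoter peaks. Promoter summits held it in 5.16% of cases, an odds ratio of 1.81 (95% interval 1.35 to 2.42, Fisher's exact test, two-sided, adjusted p = 0.000156 over 3 comparisons). In each replicate's own strongest 10000 summits, the share in qualifying sequence was 6.90%, 7.04%, 8.16% and 8.98%, and at promoters 3.62%, 4.22%, 4.92% and 5.06%. The mean difference was 3.31 ± 0.456 percentage points (SD, n = 4), positive in 4 of 4 replicates (exact permutation test, two-sided, p = 0.125, the smallest possible). Against far intergenic peaks (10.9%) the odds ratio was 0.807 (0.562 to 1.16, exact adjusted p = 0.361), and against intronic peaks (9.70%) it was 0.918 (0.704 to 1.19, exact adjusted p = 0.567). Neither difference passed the threshold, and both intervals include equal shares. In the replicates' own strongest 10000 summits, the share was below that of far intergenic summits in 4 of 4 replicates, by a mean of −1.96 ± 0.939 percentage points (SD, n = 4; exact permutation test, two-sided, p = 0.125, the smallest possible). Against intronic summits the mean difference was −0.56 ± 0.870, negative in 3 of 4 replicates (exact permutation test, two-sided, p = 0.375). Exonic summits, which were left out of these tests, held the core more often, in 16.5% of cases (43 of 260, exact 95% interval 12.2 to 21.6). Within the regions the core was at 7.61% upstream of starts (5.68 to 9.93) and at 11.99% downstream (8.49 to 16.3), a pair of shares that was not tested.

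**Figure D4:**
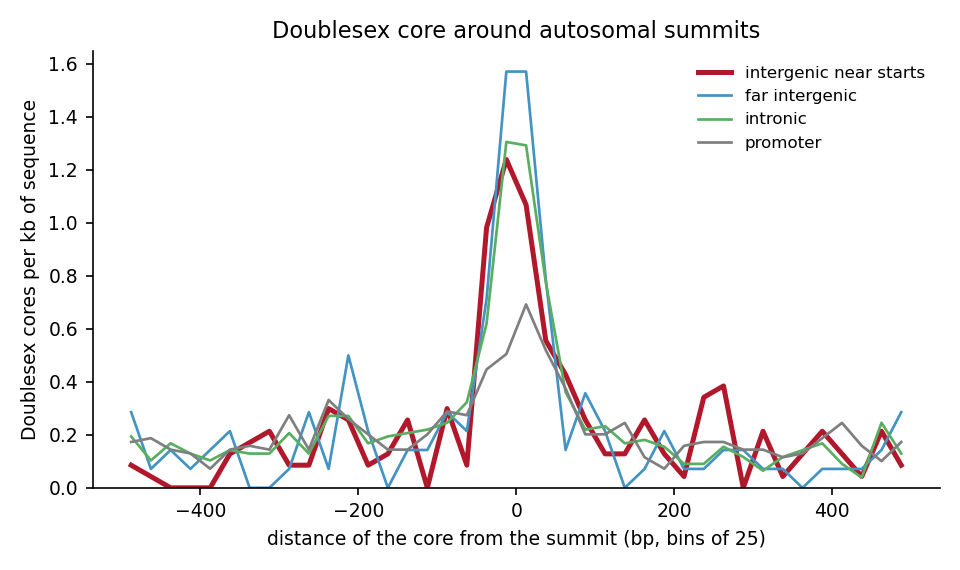
Doublesex cores per kb of sequence, either strand, in bins of 25 bp up to 500 bp from the summit, for the intergenic regions near starts (thick line) and for far intergenic, intronic and promoter autosomal peaks. All lines peak at the summit, and the promoter line has the lowest maximum.

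None of the other 11 motifs tested was called at the summits. The next by p was the STAT site TTCNNNGAA, at 2.14% of summits and 3.74% of flanks (exact McNemar adjusted p = 0.203 over 14 motifs, the lowest of the 11). GAGAG, bound by the GAGA factor, was at 10.6% and 12.3%, the homeodomain site TAATTA at 8.65% and 7.16%, the GATA site AGATAA at 6.52% and 5.66%, and the repeat CACACAC at 3.95% and 4.49%. The grainyhead site AACCNGTT was at 1.92% and 1.496%, the AP-1 site TGANTCA at 1.82% and 2.78%, and the ecdysone receptor site AGGTCA at 1.496% and 2.24%. The E-box CACGTG was at 0.748% and 1.496%, the Zelda site CAGGTAG at 0.748% and 0.427%, and TATCGATA at 1 summit and 1 flank. In a search over all 8192 distinct 7-base sequences, 5 (0.061%) were more frequent at the summits than in the higher flank after adjustment over all of them. They were the core itself, AACATTG (6.20% of summits), then ACAAAGT, then AATGTTG (7.16%), and last GCAACAA (9.08% against 4.06%, exact McNemar adjusted p = 0.0268). All but ACAAAGT are the core or overlap it when it stands with its flanking bases. At an unadjusted p under 0.05 the count was 123. GCCAGGC was at 0 summits and in 18 windows of its higher flank, but the choice of the higher flank favours such a difference, so no lower frequency is called. The GC content was 37.2% at summits, against 41.9% and 42.4% in the flanks and 40.5% over the qualifying sequence.

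The strongest regions had the highest core share. Ranked by signal and split into 4 groups of 234, the regions held it at 15.8% in the strongest group (exact 95% interval 11.4 to 21.1), at 7.69% in the second (4.62 to 11.9), at 5.56% in the third and at 6.84% in the weakest (3.96 to 10.9). The first interval overlaps slightly with the second and not with the others, whose order lies within their intervals. Regions with the core had a median signal value of 641.9, and those that lacked it 445.5. ACAAAGT went from 8.97% in the strongest group to 6.41% in the weakest, and the longer consensus from 11.5% to 4.27%. Distance to the start was similar with and without the core, with medians of 1994 and 1926 bp.

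Bases beside the core at summits differed from those of the cores in all qualifying sequence. Of the 85 cores at the 84 summits, CA came directly before 35.3% and TG directly after 34.1%, against 10.2% and 8.32% of the 2211 cores in all qualifying sequence. Both pairs were present at 11 (12.9%, exact interval 6.64 to 22.0) against 1.31%, the arrangement printed above for Rh5, Glut4EF, CG43149 and dmrt99B. By the number of matching pairs, the median signal value was 479.7 for the 36 summits with neither, 859.4 for the 37 with 1 and 2510 for the 11 with both. The values overlapped widely, from 256.4 to 2607 with neither, the highest being corto, and from 315.2 to 49509 with both. These pairs were chosen after the bases had been seen, so their frequencies and signal values are a description without a test.

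**Figure D5:**
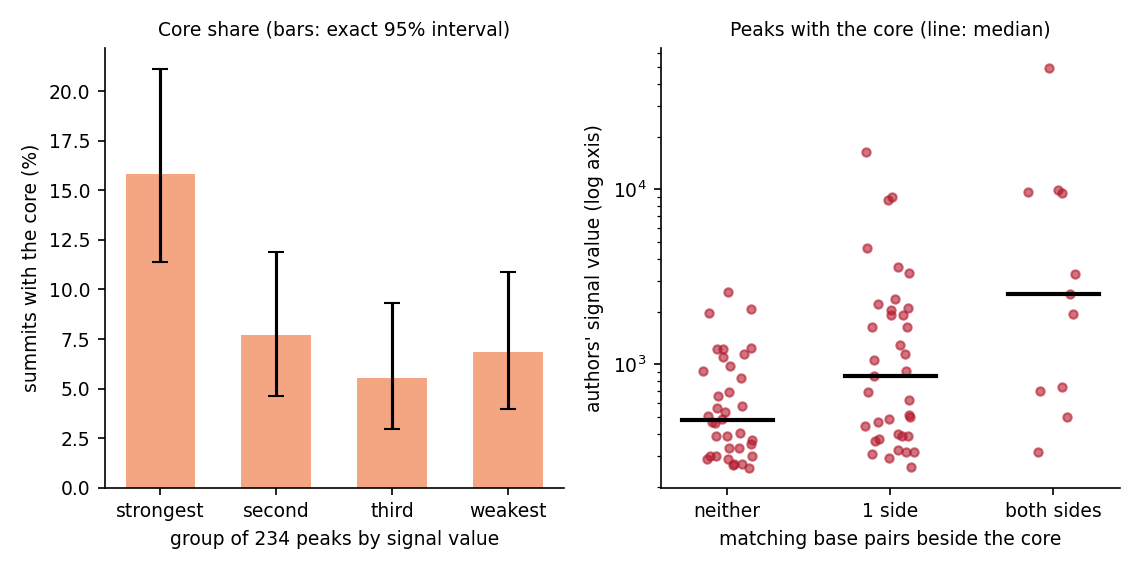
Left, share of regions with the Doublesex core within 50 bp of the summit, in 4 groups of 234 by signal value, with exact 95% intervals; the strongest group stands at 15.8% and the others between 5.56% and 7.69%. Right, authors' signal value (log axis) of the 84 regions with the core by the number of matching base pairs beside it (CA before, TG after), with medians of 479.7, 859.4 and 2510.

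Signal and core share were compared just inside and just outside the limits of the rule, on few cores. The 47 regions within 100 bp above the lower limit had a median signal value of 488.1 and the core at 6.38%, and the 43 intergenic peaks within 100 bp below it had 477.1 and 9.30%. At the upper limit, the 53 regions in the last 500 bp had 489.1 and 5.66%, and the 43 peaks in the next 500 bp had 504.1 and 4.65%.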

How the data were processed

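ChIP-seq peaks were measured in 4 samples of 1 group. Per the deposited text notes, all lists are on dm6 and each used a control file. The pool joined replicates 2, 3 and 4, and the reproducible list came from the pooled and single lists of these replicates by an irreproducible discovery rate cutoff, called optimal in the notes. Aligner, peak caller and cutoff were not given in the sources used here. The deposited signal value of each peak is the authors' own score, not normalized between lists, and was used to rank peaks within a list. The deposited −log10 q-value reaches a ceiling and was not used. The deposited summit offset, in bp from the interval start, gave 1-based summits. Lists of replicates and the pool hold 30000 summits each, a length and not a depth. Read depth is unknown. Nothing in the labels says whether the replicates came from separate crosses or collections, so p-values over them measure only the spread between these samples.

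Starts and gene spans are those of Ensembl release 115, and bases were read from RefSeq's dm6 sequence. Each base of the autosomal arms was put in the class a summit there would have, and densities are summits over that territory. Windows of 101 bases centred on summits, and others 500 bp away, were searched for motifs on both strands. Shares were compared by exact McNemar and Fisher tests with Benjamini-Hochberg adjustment, at a threshold of 0.05. Within-replicate differences were tested by sign flips over the 4 replicates. The 7-base search was tested on simulated data. Python 3.11.15, numpy 2.4.6, pandas 2.3.3, scipy 1.17.1 and matplotlib 3.10.9 were used.

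Regions were assigned to the coding gene whose start was closest, without expression data. The text names the genes of the 25 strongest regions, every gene of the reported Doublesex-regulated list with a region, at most 4 genes with the strongest regions in each other list, and the 5 stretches with the most regions, ties ordered by their strongest signal. CG33795 was chosen once its values were seen, and ex and corto were named as regions with printed sequences. Of 605 names in 18 lists, 486 matched autosomal and 80 matched X-linked coding genes, and 39, mostly older spellings, matched none. The members, lists and tests were chosen with earlier results of these data known. Alternatives covered the support distance, the number of summits per replicate, windows, flanks, class limits, gene models, the 4577 strongest peaks of the list, secondary summits and each replicate left out.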

Additional observations from a re-analysis of the deposited data

Results flagged for a closer look

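No result met a rule for a closer look. The 31 measures with a value in each of the 4 replicates, among them support, densities by class, side, distance, arm and orientation, the core share and the 3L ratio, were screened for a replicate far from the rest, by Dixon's criterion at the 95% level, and 0 were marked. Chance alone marks about 1 in 20 such groups.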

How the results depend on the processing

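The number of regions was 465 among the 4577 strongest reproducible peaks, called the stronger regions here, and 3521 over all pooled summits, against 936. It was 658 to 872 under other class limits, with coding models alone and without secondary summits. Mean support of the regions was 69.7% at 50 bp, 49.1% with the strongest 5000, 92.6% with the strongest 20000 and 95.4% for the stronger regions, and 78.2% to 84.5% with each replicate left out. Differences in support were near 0 and changed sign: against far intergenic peaks to 0.45 at 50 bp, 2.08 with the strongest 5000 and 1.15 with the strongest 20000, and −1.54 to 0.85 with a replicate left out, positive without replicate 1 (0.080), 3 (0.15) or 4 (0.85). Against intronic peaks the difference went to 0.71 with the strongest 20000 and from −1.42 to 0.52 with a replicate left out (0.52 without replicate 1). Against promoter peaks it went to −1.10 at 200 bp and −3.52 with the strongest 5000, and from −1.50 without replicate 3 and −0.55 without replicate 4 to 1.94. The cause was not tested. The near to far density ratio (log2 0.68 to 1.14), the upstream ratio (0.19 to 0.29), and the core shares against flanks and against the 3 classes kept their direction and side of the threshold under the alternatives run; the density tests cannot pass it with 4 replicates. The 3L ratio kept its direction (log2 0.50 to 0.83) under alternatives chosen after seeing the data. On the reproducible list it was 0.41 without the regions of stretches that held 3 or more, against 0.67. The sequence of those stretches was still counted in the densities. The 7-base search called 3 sequences with 25 bp windows, with flanks at 1000 bp and with the stronger regions, against 5, and the core was called each time. With flanks at 1000 bp, 2 of the 3 were among the 5, and with 25 bp windows or the stronger regions all 3 were. Coding genes with a region numbered 860 when both neighbours were counted and 300 with the stronger regions, against 536. Counts within single lists moved by over 1.5 times in 15 cases, upward in 8 when both neighbours were counted and downward in 7 with the stronger regions.

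No paired analysis was possible because all samples form 1 group. With no read counts, depth limits cannot be given. Of the 936 regions 64 are secondary summits. Small lists hold few genes, and 1 region more or less moves their share.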

Other observations

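The pooled list held 2585 further summits in the same territory that did not enter the reproducible list, at ranks 9235 to 29990. The core lay within 50 bp of 97 of them (3.75%, exact 95% interval 3.05 to 4.56), against 1.55% and 1.62% in their flanks and 8.97% at the reproducible regions. These shares were not tested.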
